A study of Mus musculus with 8 samples.

Results

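The genes described here are the S100 genes of mouse chromosome 3 and the epidermal differentiation complex that lies among them. The members were selected by symbol: protein-coding genes of chromosome 3 whose names begin with S100a, Lce or Sprr, together with Lor, Ivl, Flg, Flg2, Crct1, Kprp, Hrnr, Rptn, Tchh and Tchhl1. This gave 60 genes, all of which had a row in the count table of 49671 genes. The set was chosen by an earlier reading of the same BMPR2 DELX and ROSA libraries, so its differences between the groups are given as a description, and nothing is concluded from how many members differed. Polyadenylated RNA of mouse adipocytes was sequenced in 8 libraries, 4 from mice labelled BMPR2 DELX and 4 from mice labelled ROSA, which served as the control. Bmpr2 encodes the type II receptor for bone morphogenetic proteins. The labels gave no strain, age, sex, fat depot, driver of the allele or pooling of animals, and did not say what DELX denotes or whether the adipocytes were freshly isolated or cultured. Nothing in the labels tied a library to an animal, so p-values measure the spread between these libraries.

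The epidermal differentiation complex is a cluster of genes that encode structural proteins of the cornified envelope, the cross-linked protein shell that replaces the plasma membrane of a dying keratinocyte. Loricrin, involucrin, the small proline-rich (Sprr) proteins and the late cornified envelope (Lce) proteins are substrates that transglutaminases join together, while filaggrin and its relatives, which fuse an S100-type calcium-binding domain to long repeats, organise keratin filaments. The S100 genes that flank the cluster encode small calcium-binding proteins, several of which, among them S100a6, S100a10 and S100a11, are made in many cell types including fibroblasts and adipose cells. The envelope genes are best known from stratified epithelia rather than from fat.

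Some Lce genes are close in sequence, and the bases before their starts show how alike an undetected and a detected copy can be. Pairs of Lce1 genes ranged from 50.5% to 85.6% identity over the 250 bases before the start. The copies shown include the most alike pair. The windows below are the 200 bases before the RefSeq start (GRCm38.p6), read 5′ to 3′ on the strand of the gene, with capitals marking a match to 1 of 3 motifs on either strand. A TATA box was searched as TATAAA, an AP-1 site (the site of Fos and Jun factors) as TGANTCA, and a further run as ATAAAAG. The last was added after the promoters had been read, and shares the letters ATAAA with the first, so that their matches can overlap. Lce1g (chr3:92752339-92752538, minus strand), Lce1h (chr3:92765066-92765265, minus strand) and Lce1l (chr3:92851287-92851486, minus strand) had counts in every library, whereas Lce1i (chr3:92778900-92779099, minus strand) had none in any.
Lce1g: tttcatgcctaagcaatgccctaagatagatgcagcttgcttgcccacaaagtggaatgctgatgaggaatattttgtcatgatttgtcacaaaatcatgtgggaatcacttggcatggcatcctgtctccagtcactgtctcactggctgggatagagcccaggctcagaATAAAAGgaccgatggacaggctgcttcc
Lce1h: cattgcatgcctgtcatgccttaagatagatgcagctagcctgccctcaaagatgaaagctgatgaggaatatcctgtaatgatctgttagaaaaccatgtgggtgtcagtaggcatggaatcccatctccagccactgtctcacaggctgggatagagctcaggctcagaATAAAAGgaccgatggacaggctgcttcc
Lce1i: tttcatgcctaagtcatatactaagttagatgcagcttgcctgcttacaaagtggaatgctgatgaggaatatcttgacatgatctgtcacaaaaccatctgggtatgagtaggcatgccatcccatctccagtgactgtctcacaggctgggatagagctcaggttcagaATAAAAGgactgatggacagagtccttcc
Lce1l: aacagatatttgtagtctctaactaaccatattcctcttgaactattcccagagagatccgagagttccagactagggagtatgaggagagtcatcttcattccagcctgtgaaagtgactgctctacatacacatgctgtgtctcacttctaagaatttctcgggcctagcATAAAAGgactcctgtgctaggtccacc

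Over the 250 bases before the start, Lce1g was 85.6% identical to Lce1i and 84.5% identical to Lce1h, and Lce1h was 81.3% identical to Lce1i. Lce1l was the most distant of these copies, at 52.9% identity to Lce1g. The ATAAAAG run stood at position -29 in Lce1g, Lce1h and Lce1i and at position -28 in Lce1l, counting the first base of the run and the start site as 0. The undetected Lce1i had the same run at the same place as its 2 detected neighbours. In the windows from 250 bases before to 50 after the start, 15 of 20 Lce genes (75%) held ATAAAAG, against 5.42% of 32851 RefSeq windows, and 0 of 20 held an AP-1 site. Because the run was picked after these promoters had been read, its high share among them is a description and not a finding.

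The Sprr genes and Ivl, which encodes involucrin, differed from the Lce genes in these letters. Sprr2k (chr3:92432382-92432581, plus strand), Sprr1a (chr3:92485882-92486081, minus strand) and Ivl (chr3:92573736-92573935, minus strand) are shown because Sprr2k and Sprr1a had opposite signs in the libraries and Ivl spread widely among the ROSA libraries.
Sprr2k: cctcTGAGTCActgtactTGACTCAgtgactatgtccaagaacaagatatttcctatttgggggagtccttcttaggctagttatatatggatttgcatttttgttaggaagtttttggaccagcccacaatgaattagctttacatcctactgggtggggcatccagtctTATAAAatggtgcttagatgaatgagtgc
Sprr1a: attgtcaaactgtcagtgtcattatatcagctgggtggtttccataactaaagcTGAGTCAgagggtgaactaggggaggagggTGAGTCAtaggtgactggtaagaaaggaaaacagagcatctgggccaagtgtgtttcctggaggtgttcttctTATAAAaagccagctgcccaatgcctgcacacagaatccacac
Ivl: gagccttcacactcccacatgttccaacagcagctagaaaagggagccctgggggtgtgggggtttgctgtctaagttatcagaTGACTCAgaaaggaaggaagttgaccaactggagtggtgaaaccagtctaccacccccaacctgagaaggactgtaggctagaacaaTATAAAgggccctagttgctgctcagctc

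A TATA box was present in 10 of 14 Sprr windows (71.4%), against 13.6% of all windows, and an AP-1 site in 9 of 14 (64.3%), against 7.81% of all windows. Sprr2k had AP-1 sites at positions -196 and -182 and a TATA box at -29. In Sprr1a the AP-1 sites stood at -146 and -116 and the TATA box at -43. Ivl had an AP-1 site at -116 and a TATA box at -29, and Lor, which encodes loricrin, at -48 and -27. Among the 11 S100 windows only S100a11 held an AP-1 site (positions -136 and -38), and S100a7a held none of the 3 motifs. These matches are descriptions of letters in a window, not of bound sites. Windows were found for 53 of the 60 members. Crct1, Kprp, Lce1f, S100a2, S100a10, S100a14 and Sprr2j-ps were not among them.

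**Figure D1:**
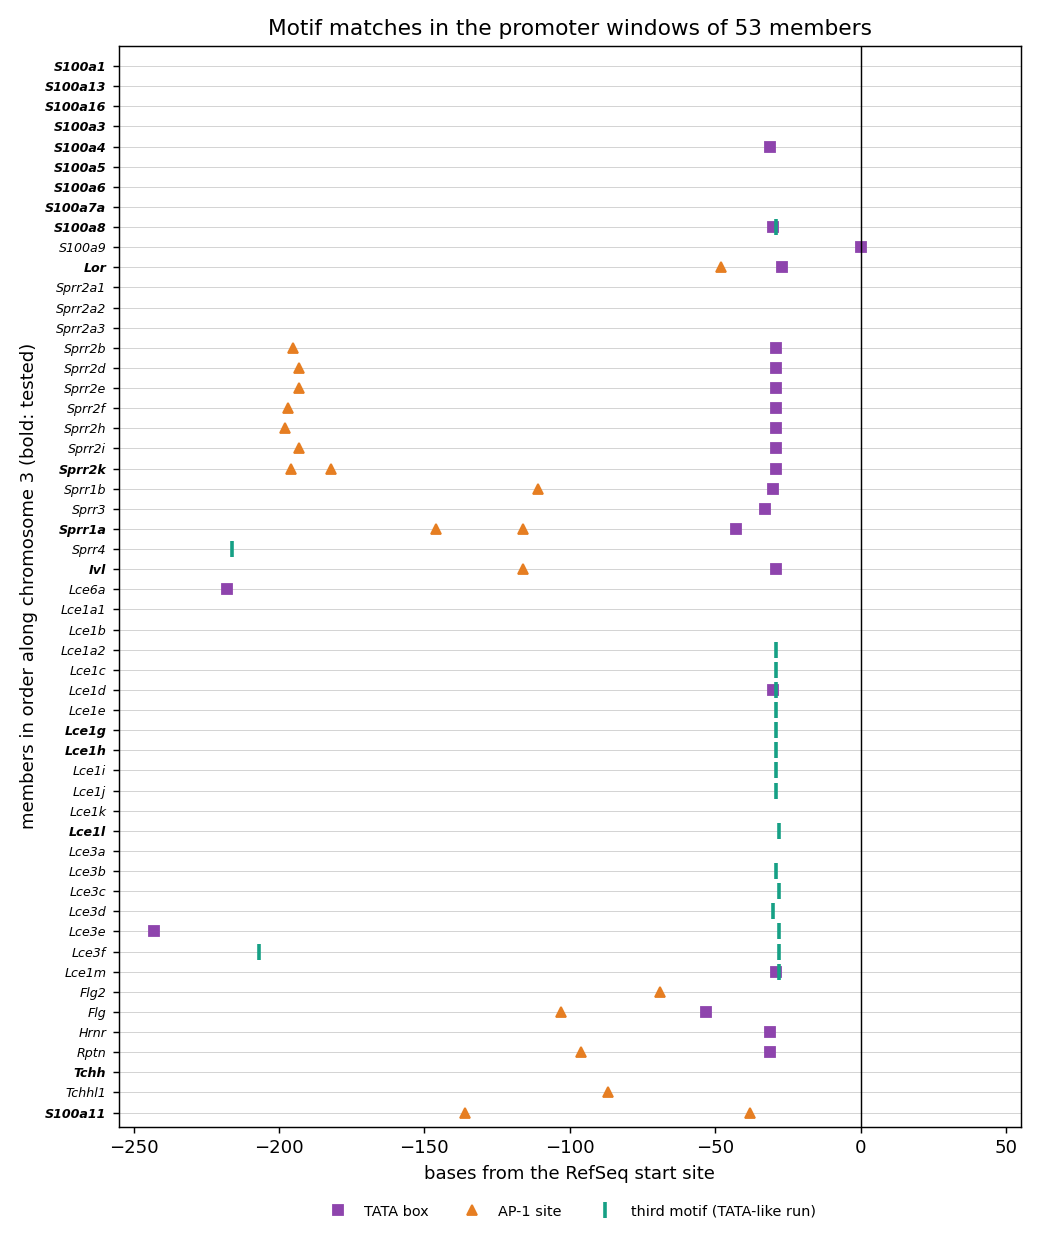
Positions of the 3 motifs in the promoter windows of 53 members, ordered along chromosome 3 (y axis) against distance in bases from the RefSeq start (x axis). Each mark is 1 match. ATAAAAG marks line up near -29 in 15 of 20 Lce genes. TATA boxes near -29 with AP-1 sites near -193 to -198 line up in Sprr2b, Sprr2d, Sprr2e, Sprr2f, Sprr2h, Sprr2i and Sprr2k. Sprr2a1, Sprr2a2 and Sprr2a3 held none of the 3 motifs.

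The libraries held 28799445 to 43684785 counts assigned to genes, so that a gene at 0 may be present at up to 3 counts, or 0.0687 to 0.104 counts per 1000000 counts (CPM), where counting error alone is considered. Of 14887 genes tested with edgeR's quasi-likelihood test, 1355 (9.10%) passed an adjusted p of 0.05 (Benjamini-Hochberg, the threshold for a call throughout), 589 higher (3.96%) and 766 lower (5.15%) in BMPR2 DELX. With upper-quartile scaling the split turned, from 43.5% of calls higher to 54.8%, and the median log2 difference of all genes went from 0.0045 to 0.043. Bmpr2 itself averaged 211 ± 17.6 CPM in BMPR2 DELX against 197 ± 17.0 CPM in ROSA (SD, n = 4 each), with an adjusted p of 0.47 in edgeR, and counts per gene do not show whether an exon is lost. Among 10 adipocyte genes, no library had more than 3 counts of Retn, Cfd, Lep, Cidec or Plin1, more than 6 of Adipoq or more than 9 of Slc2a4, so these 7 markers of mature fat cells were at or near 0 in RNA labelled as adipocytes. The other 3 were present: Lpl at 210.1 ± 34.5 CPM in BMPR2 DELX and at 140.4 ± 17.7 CPM in ROSA (called higher, adjusted p of 0.024 in edgeR), Fabp4 at 49.9 ± 11.4 and 61.0 ± 11.9 CPM, and Pparg at 21.8 ± 3.49 and 16.1 ± 2.67 CPM (SD, n = 4 each, the latter pair not called). The list summed to 266 to 316 CPM in BMPR2 DELX and to 185 to 232 CPM in ROSA. Fibroblast and contractile genes were high in both groups, at a summed 23693 to 30165 CPM in BMPR2 DELX against 22431 to 27660 CPM in ROSA.

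Of the 60 members, 22 had enough counts to be tested and 38 did not. In the 22 tested, 8 were called lower in BMPR2 DELX (36.4% of those tested, beside 5.15% of all genes), 0 were called higher (beside 3.96%) and 14 were not called. At an unadjusted p below 0.05 in edgeR there were 11 lower members and 1 higher, DESeq2 called 8 lower and 1 higher, and limma voom called 8 lower and 0 higher. The log2 difference was below 0 in 20 of the 22, with a median of -0.53, beside a median of 0.0045 and 49.3% below 0 over all tested genes. In 10 members every BMPR2 DELX library lay below every ROSA library, which 9.65% of all tested genes also showed. Among these 10, Lce1f, Sprr2k, Lor and S100a8 had too few counts to be tested on their BMPR2 DELX libraries alone. They entered through ROSA, where they were higher, so their direction and lack of overlap are not independent of the count filter. A filter of 1 CPM in 4 libraries left them out, and 6 of 17 tested members were then called lower. Lce1h, 1 of these 6, stood at 0.793 CPM of unscaled totals in BMPR2 DELX 3. It passed that filter only with its ROSA libraries, so the count of 6 is not independent of the filter either. Leaving out BMPR2 DELX 2, BMPR2 DELX 3, ROSA 1 or ROSA 3 left 5 members called lower, and leaving out ROSA 2 left 4. The members called lower were Lce1f, Lce1g, Lce1h, Lce1l, Crct1, Sprr2k, S100a7a and S100a11.

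**Figure D2:**
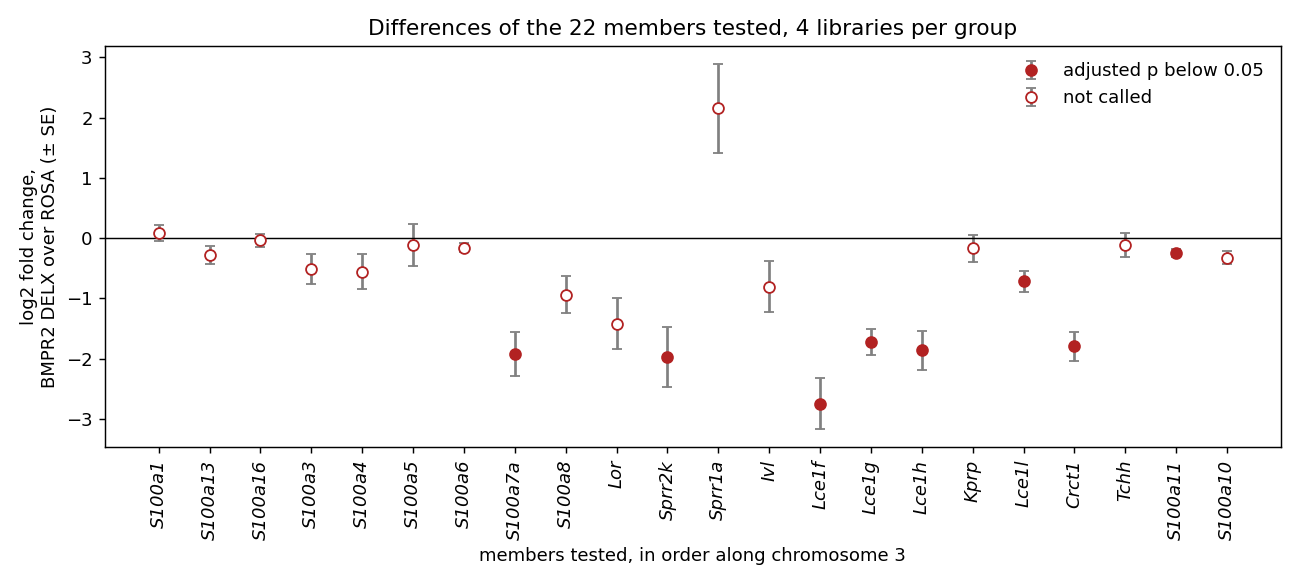
Log2 difference of BMPR2 DELX over ROSA with its SE (y axis) for the 22 members tested, in order along chromosome 3 (x axis), with 4 libraries per group. Sprr1a, at 2.15, and S100a1, at 0.09, are above 0, and Lce1f, at -2.74, is the lowest.

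The late cornified envelope genes encode small proteins added to the envelope late in keratinocyte differentiation. All 4 of the 21 Lce genes that could be tested were called lower in BMPR2 DELX, with a median log2 difference of -1.79. Each of these 4 had every BMPR2 DELX library below every ROSA library. Lce1f was among them only through its ROSA counts, so its place in the count and the median is not independent of its direction.

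Lce1f (ENSMUSG00000042124, chr3:92718685-92720350 on GRCm38, minus strand) stood at 0.0982, 0.226, 0.323 and 0.246 CPM in BMPR2 DELX 1 to 4 and at 1.68, 1.33, 2.39 and 0.759 CPM in ROSA 1 to 4. Before scaling these were 3, 8, 11 and 11 counts in BMPR2 DELX and 54, 55, 72 and 26 in ROSA. The lowest ROSA library, ROSA 4, was above the highest BMPR2 DELX library. This gave a log2 difference of -2.74 ± 0.42 (SE), with an adjusted p of 0.0065 in edgeR.

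Lce1g (ENSMUSG00000027919, chr3:92750148-92752338, minus strand) had the highest CPM of the 4 in ROSA, at 11.5, 9.27, 12.2 and 6.65 CPM (9.92 ± 2.52, SD, n = 4). The BMPR2 DELX libraries held 2.91, 2.71, 2.38 and 3.98 CPM (2.99 ± 0.692, SD, n = 4). Both groups were tight relative to the gap between them. Lce1g was lower by a log2 difference of -1.72 ± 0.22, with an adjusted p of 0.0033 in edgeR.

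Lce1h (ENSMUSG00000049593, chr3:92763215-92765065, minus strand) had 1.01, 1.89, 0.793 and 1.18 CPM in BMPR2 DELX against 3.67, 4.34, 6.88 and 2.98 CPM in ROSA. ROSA 3 was high and ROSA 4 low within its group, as they were for Lce1f and Lce1g. The difference was -1.86 ± 0.32 on the log2 scale, with an adjusted p of 0.011 in edgeR.

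Lce1l (ENSMUSG00000046676, chr3:92849949-92851286, minus strand), which lies on the far side of Kprp from these genes and has the least similar promoter, had a smaller difference. It stood at 3.27, 4.71, 4.73 and 5.83 CPM in BMPR2 DELX and at 7.58, 7.09, 8.88 and 7.03 CPM in ROSA, with the groups close but apart. Lce1l had a log2 difference of -0.72 ± 0.17 with an adjusted p of 0.031 in edgeR, and the call was lost when BMPR2 DELX 2, BMPR2 DELX 3, ROSA 1, ROSA 2 or ROSA 3 was left out (adjusted p of 0.060 to 0.075). Lce1f, Lce1g and Lce1h were called in all 8 fits that left out 1 library.

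The other 17 Lce genes reached 9 counts at most, and 5 of them, Lce1i included, were at 0 throughout. Lce3c had 4, 9, 0 and 2 counts in ROSA 1 to 4 and 0 in every BMPR2 DELX library, but was too low to test. Lce3f ran the other way, with 5, 1, 4 and 9 counts in BMPR2 DELX 1 to 4 and 1, 3, 1 and 1 in ROSA 1 to 4, also too low to test. Family members share sequence, and reads that map to more than 1 place are not counted per gene in this kind of table. Of the 50-base stretches in the transcripts, 13.8% of Lce1f, 17.8% of Lce1g, 19.9% of Lce1h, 9.66% of Lce1l, 27.1% of Lce1i and 48% of Lce3f also occurred in another gene. Levels of the Lce genes are therefore uncertain to that extent.

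**Figure D3:**
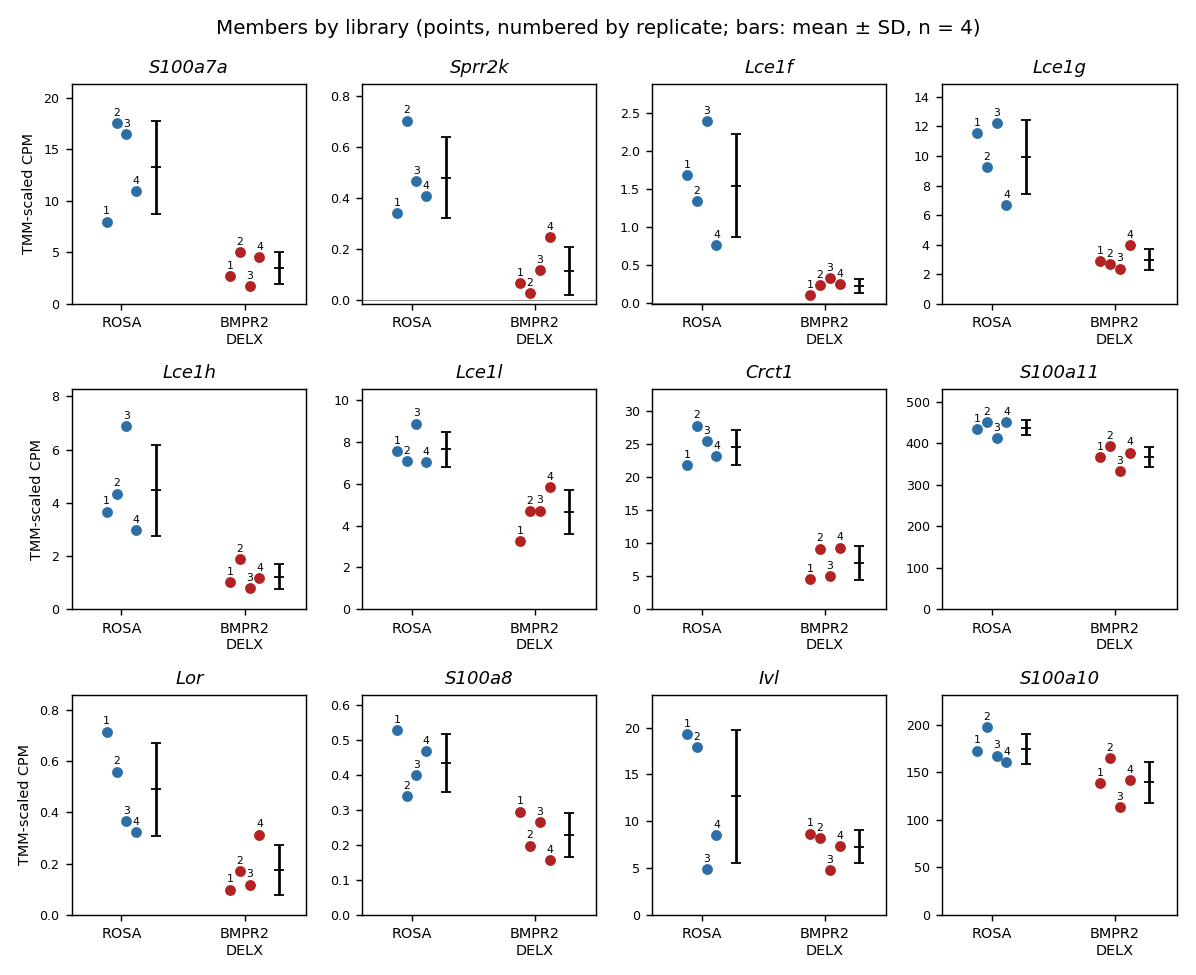
CPM of each library (points) with the group mean and SD (bar and line) for the members the results turn on, ROSA on the left and BMPR2 DELX on the right of each panel, with linear axes of their own. In Lce1g the BMPR2 DELX libraries lie between 2.38 and 3.98 CPM and the ROSA libraries between 6.65 and 12.2.

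The remaining structural genes of the envelope, Crct1, Lor, Ivl and Kprp, could all be tested and differed in size of change. Crct1 was called lower, whereas Lor, Ivl and Kprp were not called. The median log2 difference of these 4 was -1.11.

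Crct1 (ENSMUSG00000027913, chr3:93014205-93015687, minus strand) encodes a small cysteine-rich protein, and it was the most abundant envelope gene per kb of exon, at 30.9 ± 3.34 CPM per kb in ROSA (SD, n = 4). Its libraries stood at 21.7, 27.7, 25.4 and 23.1 CPM in ROSA and at 4.55, 9.16, 5.05 and 9.30 CPM in BMPR2 DELX. The highest BMPR2 DELX library was well below the lowest ROSA library. Crct1 had a log2 difference of -1.80 ± 0.23, with an adjusted p of 0.0039 in edgeR, and it was called in all 8 fits that left out 1 library. None of its 50-base stretches occurred in another transcript.

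Lor (ENSMUSG00000043165, chr3:92080271-92083142, minus strand) encodes loricrin, the major protein of the envelope in skin. It had only 3, 6, 4 and 14 counts in BMPR2 DELX and 23, 23, 11 and 11 in ROSA. Scaled for depth, these were 0.0982 to 0.313 CPM and 0.321 to 0.715 CPM, so that the groups did not overlap by a narrow margin. The log2 difference was -1.42 ± 0.43, with an adjusted p of 0.066 in edgeR. Lor held more counts on the opposite strand of the gene model, 152 over the 8 libraries against 95 on its own strand, and its level is uncertain for that reason.

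Ivl (ENSMUSG00000049128, chr3:92570902-92573735, minus strand), the gene of the early envelope protein involucrin, stood at 19.3 and 17.9 CPM in ROSA 1 and 2, but at 4.86 and 8.49 CPM in ROSA 3 and 4. The BMPR2 DELX libraries, at 8.67, 8.23, 4.78 and 7.37 CPM, overlapped the latter pair. The log2 difference was -0.80 ± 0.42, with an adjusted p of 0.268 in edgeR, and it was 0.13 without ROSA 1 and ROSA 2, an alternative added after seeing the data. Kprp (ENSMUSG00000059832, chr3:92823074-92827247, minus strand), a keratinocyte proline-rich protein gene, had 2.88, 5.69, 5.52 and 5.59 CPM in BMPR2 DELX against 6.03, 4.22, 6.19 and 5.78 CPM in ROSA. Its groups overlapped, and the log2 difference was -0.17 ± 0.22 (adjusted p of 0.669, edgeR).

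The small proline-rich genes encode cross-bridging proteins of the envelope, and Sprr1a is also known as a gene induced in injured or stressed non-epidermal tissue. Only 2 of 15 could be tested, and they had opposite signs. Sprr2k was called lower and Sprr1a was not called.

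Sprr2k (ENSMUSG00000054215, chr3:92432582-92433925, plus strand) had 2, 1, 4 and 11 counts in BMPR2 DELX and 11, 29, 14 and 14 in ROSA, or 0.114 ± 0.0950 CPM and 0.480 ± 0.158 CPM (SD, n = 4 each). After scaling, no BMPR2 DELX library reached the ROSA range. Sprr2k had a log2 difference of -1.97 ± 0.50 with an adjusted p of 0.0405 in edgeR, and when 1 library was left out the call held only without BMPR2 DELX 4 (adjusted p of 0.020 there and 0.056 to 0.124 otherwise). It was also lost in edgeR with the replicate number as a block (adjusted p of 0.062).

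Sprr1a (ENSMUSG00000050359, chr3:92483952-92485895, minus strand) was even across ROSA, at 2.61, 3.03, 2.10 and 1.98 CPM, and uneven in BMPR2 DELX, at 3.04, 12.5, 25.4 and 2.66 CPM. BMPR2 DELX 2 and 3 were high, and BMPR2 DELX 1 and 4 were within or near the ROSA range. The log2 difference of 2.15 ± 0.73 had an adjusted p of 0.110 in edgeR and 0.0315 in DESeq2, and it fell to 1.31 without BMPR2 DELX 3.

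Some genes of simple epithelium were high in the same libraries as Sprr1a. Krt8, a keratin of simple epithelia, stood at 2.81, 5.67, 11.2 and 0.939 CPM in BMPR2 DELX and at 1.62, 0.340, 0.0998 and 0.292 CPM in ROSA. Pax8, a transcription factor of kidney, thyroid and reproductive tract epithelia, stood at 0.884, 1.92, 4.49 and 0.290 CPM in BMPR2 DELX and at 0.0584 to 0.315 CPM in ROSA. Of the 13 genes in the simple epithelium list, 8 were tested and 2 were called higher, Lad1 (log2 difference 3.29 ± 0.78, adjusted p of 0.035) and Pax8 (3.38 ± 0.87, adjusted p of 0.047), both in edgeR. Lad1 and Pax8 had too few counts to be tested on their ROSA libraries alone. They entered through BMPR2 DELX, where they were higher, so their direction and calls are not independent of the count filter. Krt19, another keratin of simple epithelia, ran the other way, at 12.1 ± 5.85 CPM in BMPR2 DELX against 26.4 ± 3.65 CPM in ROSA (SD, n = 4 each), with no overlap and an adjusted p of 0.0515 in edgeR. The defining genes Epcam and Cdh1 had at most 5 and 6 counts, and the list summed to 24.1 to 62.1 CPM in BMPR2 DELX against 30.6 to 47.7 CPM in ROSA. The part of these genes, or of the cells that express them, in the Sprr1a values was not tested.

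**Figure D4:**
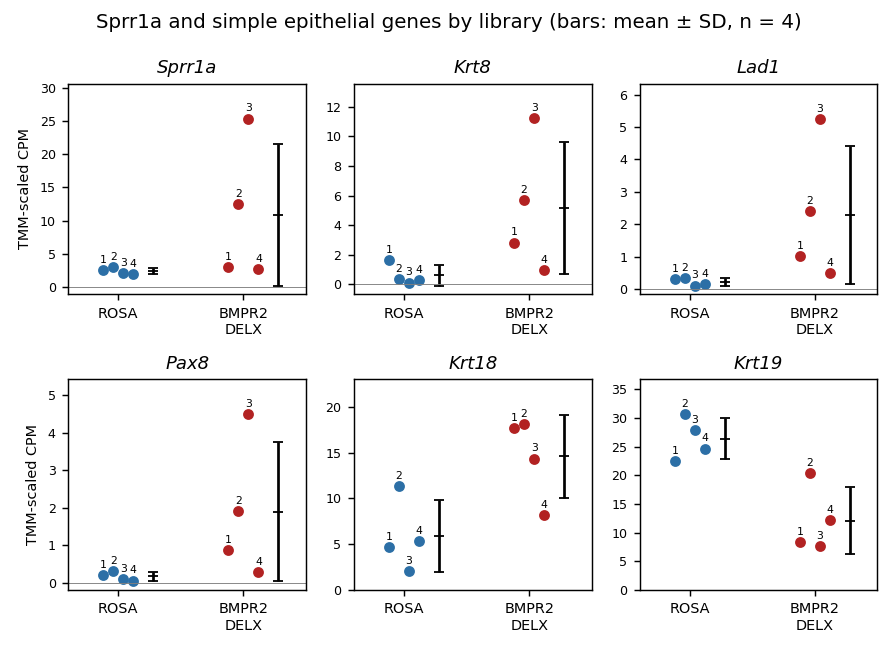
CPM of each library (points) with the group mean and SD for Sprr1a beside genes of the simple epithelium list, ROSA on the left and BMPR2 DELX on the right of each panel. The highest Sprr1a library, BMPR2 DELX 3 at 25.4 CPM, is also the highest for Krt8, at 11.2 CPM, for Pax8, at 4.49 CPM, and for Lad1, at 5.25 CPM. Krt18 and Krt19 differ from this. Krt18 is highest in BMPR2 DELX 2, at 18.1 CPM, with BMPR2 DELX 3 at 14.3 CPM, and Krt19 is lowest in BMPR2 DELX 3, at 7.57 CPM.

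The 13 untested Sprr genes reached 17 counts at most, and 6 of them were at 0 throughout. Sprr3 had 1, 17, 9 and 12 counts in BMPR2 DELX and 5, 16, 11 and 8 in ROSA, which overlap. Sprr2h had 1, 1, 5 and 3 counts in ROSA and 0 in every BMPR2 DELX library. Sprr2a1 and Sprr2a2 share 96.3% and 96.5% of their 50-base stretches with another transcript, so that most of their reads could not be assigned to 1 gene.

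The fused S100-type genes, whose products organise keratin filaments in the granular layer and the hair follicle, were nearly absent. Flg (filaggrin) and Flg2 had at most 1 count in a library, Rptn and Tchhl1 at most 3, and Hrnr 0 in all 8 libraries. Tchh (ENSMUSG00000052415, chr3:93442330-93449077, plus strand), the gene of the hair follicle protein trichohyalin, was the exception, at 2.29, 2.65, 2.88 and 1.70 CPM in BMPR2 DELX against 2.92, 2.31, 2.59 and 2.45 CPM in ROSA. The groups overlapped, with a log2 difference of -0.11 ± 0.19 (adjusted p of 0.751, edgeR).

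**Figure D5:**
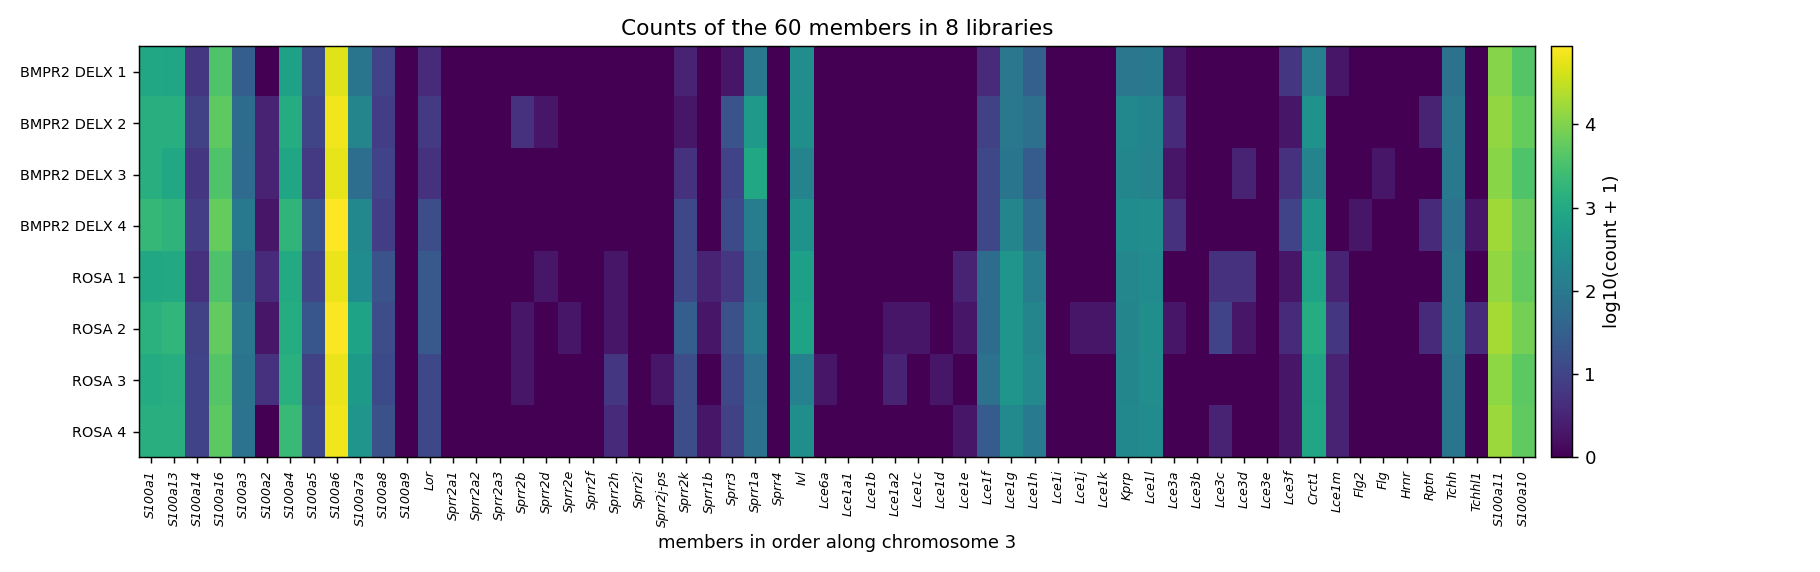
Counts of the 60 members in the 8 libraries as log10(count + 1) (colour), with the members in order along chromosome 3 (x axis) and 1 row per library. S100a6 and S100a11 are the brightest in every library, and most of the Sprr, Lce and filaggrin-type genes between them have few or no counts, with 13 members at 0 throughout.

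The S100 genes were the abundant members, and 11 of 14 could be tested. S100a7a and S100a11 were called lower, 9 were not called, and the median log2 difference was -0.28. Per kb of exon in ROSA, S100a6 was highest at 1459 ± 49.7 CPM per kb (SD, n = 4 here and below), then S100a11 at 855 ± 35.5 and S100a10 at 144 ± 13.2. S100a16 (81.7 ± 8.48) and S100a4 (73.3 ± 28.6) did not differ beyond their spread, and neither did S100a13 (53.4 ± 7.34) and S100a1 (48.8 ± 6.83). Crct1, at 30.9 ± 3.34 CPM per kb, came next, followed by Lce1l (11.4 ± 1.28), Lce1g (10.7 ± 2.72) and S100a7a (9.61 ± 3.30), which overlapped each other.

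S100a7a (ENSMUSG00000063767, chr3:90654017-90658669, plus strand), the mouse relative of psoriasin, an antimicrobial S100 protein of inflamed skin, had the largest difference of the S100 genes. It stood at 2.65, 4.99, 1.73 and 4.56 CPM in BMPR2 DELX and at 7.99, 17.6, 16.5 and 10.9 CPM in ROSA. All 4 BMPR2 DELX libraries were below the lowest ROSA library, ROSA 1. S100a7a had a log2 difference of -1.92 ± 0.37 with an adjusted p of 0.0185 in edgeR. The call was lost without ROSA 2 (adjusted p of 0.054) and with no count filter (adjusted p of 0.066).

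S100a11 (ENSMUSG00000027907, chr3:93520488-93526287, plus strand), which encodes a calcium-dependent partner of annexins, stood at 366, 392, 334 and 377 CPM in BMPR2 DELX and at 434, 451, 412 and 450.0 CPM in ROSA. The groups were narrow and did not overlap, but the log2 difference was small, at -0.25 ± 0.07, with an adjusted p of 0.046 in edgeR. The call did not hold in any of the 8 fits that left out 1 library (adjusted p of 0.055 to 0.145), nor with upper-quartile scaling (adjusted p of 0.069), no count filter (0.071), the unstranded column (0.061) or the replicate number as a block (0.055). Of its 50-base stretches, 41.1% also occurred in another gene, with Gm12854 sharing the most, so its count leaves out reads that could not be assigned.

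S100a10 (chr3:93555080-93564643, plus strand) encodes the partner that binds annexin A2 in a tetramer at the plasma membrane. It had 138, 165, 113 and 142 CPM in BMPR2 DELX against 173, 197, 168 and 160.4 CPM in ROSA, with BMPR2 DELX 2 inside the ROSA range. The log2 difference was -0.33 ± 0.11 (adjusted p of 0.095, edgeR). S100a6 (chr3:90612882-90624181, plus strand), or calcyclin, had 1603, 1904, 1707 and 1945 CPM in BMPR2 DELX against 1941, 1964, 2093 and 1979.8 CPM in ROSA, a log2 difference of -0.16 ± 0.08 (adjusted p of 0.226, edgeR).

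S100a8 (chr3:90668978-90670035, plus strand) encodes 1 chain of calprotectin, a protein of neutrophils and monocytes, whose partner gene S100a9 was at 0 in all 8 libraries. It was low, at 0.295, 0.197, 0.264 and 0.156 CPM in BMPR2 DELX against 0.528, 0.340, 0.399 and 0.467 CPM in ROSA. The groups did not overlap, and the log2 difference was -0.94 ± 0.31 with an adjusted p of 0.089 in edgeR. Of 19 neutrophil and monocyte genes, 4 were tested and Cd68 was called higher (0.72 ± 0.16, adjusted p of 0.024, edgeR). Their sum ran the other way from S100a8, at 15.2 to 32.9 CPM in BMPR2 DELX against 5.98 to 13.0 CPM in ROSA. Much of that sum was Lyz2, at 11.5 ± 6.11 CPM against 4.06 ± 1.65 CPM (not called), and Cd68, at 6.46 ± 0.446 against 3.92 ± 0.808 CPM (SD, n = 4 each). The sum therefore does not describe the list as a whole. Of the 4 tested genes, 0 had a log2 difference below 0, and the median was 1.11. Mmp8 and Mpeg1, 2 of these 4, were tested only through their BMPR2 DELX counts, so their direction is not independent of the count filter. Over the 19 genes, DESeq2 called 4 higher and 0 lower, and limma voom 1 higher and 0 lower. The defining neutrophil gene Csf3r was at 0.

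The remaining S100 genes overlapped between the groups and were not called. S100a4 (chr3:90603771-90606045, plus strand), a marker of motile fibroblasts, spread widely in ROSA, at 33.1, 27.3, 45.7 and 65.0 CPM, against 22.0, 31.8, 24.0 and 38.3 CPM in BMPR2 DELX, with a log2 difference of -0.56 ± 0.29 (adjusted p of 0.266, edgeR). The model Gm42674 overlaps it on the same strand. Of the 50-base stretches of S100a4, 47.4% also occurred in another gene, with Gm42674 sharing the most, so the level of S100a4 is uncertain. S100a13 (chr3:90514435-90524581, plus strand), which takes part in release of Fgf1, had 27.3, 36.3, 25.4 and 37.2 CPM in BMPR2 DELX against 31.4, 44.1, 39.3 and 38.0 CPM in ROSA (log2 difference -0.28 ± 0.15). S100a16 (chr3:90537254-90543151, plus strand) had 125, 149, 109.6 and 132 CPM in BMPR2 DELX against 112, 136, 136 and 144 CPM in ROSA (-0.03 ± 0.10).

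S100a1 (chr3:90511034-90514392, minus strand), a calcium sensor of heart and muscle, had 28.4, 36.1, 36.3 and 43.1 CPM in BMPR2 DELX against 27.2, 34.0, 36.7 and 37.6 CPM in ROSA, and its log2 difference of 0.09 ± 0.14 was the only positive value among the S100 genes. S100a3 (chr3:90560578-90602702, plus strand) had 0.949, 1.55, 1.53 and 2.19 CPM in BMPR2 DELX against 1.83, 2.18, 2.66 and 2.22 CPM in ROSA (-0.50 ± 0.25). S100a5 (chr3:90608523-90611780, plus strand) had 0.458, 0.282, 0.176 and 0.380 CPM in BMPR2 DELX against 0.311, 0.485, 0.266 and 0.321 CPM in ROSA (-0.11 ± 0.35). Adjusted p-values of S100a1, S100a3, S100a5, S100a13 and S100a16 were 0.229 to 0.872 in edgeR. S100a14 had 4 to 9 counts per library and S100a2 0 to 4, and neither was tested.

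Proteins that bind S100 proteins were compared as a related list. Of 17 such genes, 16 were tested, 1 was called higher and 2 lower, with a median log2 difference of -0.08. Fgf1, a growth factor exported with S100a13, was called higher, at 0.360, 0.536, 0.851 and 0.402 CPM in BMPR2 DELX against 0.0932, 0.218, 0.133 and 0.146 CPM in ROSA (log2 difference 1.80 ± 0.40, adjusted p of 0.024, edgeR). With 3, 9, 4 and 5 counts in ROSA, Fgf1 could be tested only through BMPR2 DELX, where it was higher. Its direction and call are therefore not independent of the count filter. Anxa5, an annexin, was called lower, at 513 ± 57.5 CPM in BMPR2 DELX against 653 ± 33.8 CPM in ROSA (SD, n = 4 each, log2 difference -0.35 ± 0.08, adjusted p of 0.033, edgeR), as was Bsg, a receptor of S100A9 (-0.23 ± 0.06, adjusted p of 0.046, edgeR). Ahnak, a scaffold that binds the S100a10 complex, had -0.53 ± 0.17 and an adjusted p of 0.086 in edgeR, and Anxa2 had -0.07 ± 0.07 with an adjusted p of 0.557.

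Markers of keratinocytes were mostly at or near 0. Of 10 keratinocyte keratins, Krt1, Krt2, Krt5 and Krt6a were at 0 in all libraries, 7 in all had at most 3 counts, and the list summed to 0.824 to 1.87 CPM in BMPR2 DELX against 0.627 to 1.40 CPM in ROSA. Krt10, the only 1 tested, averaged 1.07 ± 0.383 CPM in BMPR2 DELX against 1.00 ± 0.321 CPM in ROSA (SD, n = 4 each). Of 28 envelope and desmosome genes outside chromosome 3, 12 were tested, 1 was called lower and 0 higher in edgeR (0 higher at an unadjusted p below 0.05, and 0 by DESeq2 or limma voom), with a median log2 difference of -0.29. The called gene was Aloxe3, a lipoxygenase of the epidermal barrier, at 1.08, 0.987, 0.558 and 1.03 CPM in BMPR2 DELX against 2.21, 4.71, 2.43 and 2.25 CPM in ROSA (-1.67 ± 0.31, adjusted p of 0.014, edgeR). Perp, a desmosome gene, was high in ROSA 1 and 2 (116.8 and 85.4 CPM) and lower in ROSA 3 and 4 (38.7 and 51.5 CPM), the same libraries in which Ivl was high and low. Fewer cells of a type and less RNA per cell cannot be told apart in these bulk libraries.

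Regulators of epidermal differentiation were not called in edgeR. Of 17, 11 were tested, 0 passed the adjusted threshold and 5 had an unadjusted p below 0.05, 2 higher and 3 lower. DESeq2 called 2 higher and 2 lower, and limma voom 1 higher and 0 lower. The smallest p-values belonged to Cebpa (log2 difference 0.80 ± 0.23, adjusted p of 0.059), Maf (-0.32 ± 0.09, 0.060), Nfe2l2 (0.25 ± 0.08, 0.071) and Klf4 (-0.72 ± 0.23, 0.085), all in edgeR. Trp63, which encodes the p63 factor that defines stratified epithelium, had at most 2 counts in any library.

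Other protein-coding genes that lie between the outermost members were at low counts. Of 15 such genes, 1 could be tested, Gm9774, at 1.10 ± 0.153 CPM in BMPR2 DELX against 1.04 ± 0.256 CPM in ROSA (SD, n = 4 each), next to Sprr2k. Its log2 difference was 0.07 ± 0.24 with an adjusted p of 0.877 in edgeR, and neither DESeq2 nor limma voom called it. Pglyrp3, a peptidoglycan recognition protein gene, had 4, 3, 5 and 4 counts in BMPR2 DELX and 8, 10, 13 and 6 in ROSA. Over library totals these were 0.0891 to 0.147 CPM and 0.174 to 0.429 CPM, without overlap, but too low to test. The others reached at most 5 counts. The 3 S100 genes of other chromosomes in the table, S100b, S100g and S100z, had at most 5, 3 and 0 counts.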

How the data were processed

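The deposited values were whole-number counts per gene, 1 table per library, made with STAR 2.5.2b and HTSeq on GRCm38, per the submitters' processing notes; settings and annotation release were not given in the sources used here. Of the strand-assigned counts, 93.4% stood in the column for reads opposite to the first strand, which was used throughout. Gene names, coordinates and exon lengths came from GENCODE M21 (GRCm38), which held 49412 of 49671 genes. Reads not assigned to a gene (14.7 to 22.0% per library) were left out of library sizes.

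Genes were filtered with filterByExpr, scaled with TMM and tested with edgeR 4.0.16 (quasi-likelihood, robust, R 4.3.3) across all 14887 genes, BMPR2 DELX over ROSA, with Benjamini-Hochberg adjustment and a threshold of 0.05. CPM are TMM-scaled, and CPM per kb divide by exon length. The SE was computed as the log2 difference over the root of F. The code was tested on simulated counts. Alternatives were DESeq2 1.42.0, limma 3.58.1 (voom with sample weights), other scalings, filters and columns, a replicate block, and leaving out libraries. Every tested member was named, and untested ones where a library had 10 counts or where a count is discussed; the latter were chosen after their values were seen. Members and lists were chosen with earlier results of these data known. Promoter sequences came from RefSeq (GRCm38.p6).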

Additional observations from a re-analysis of the deposited data

Results flagged for a closer look

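Of 46 groups of 4 libraries examined among the 22 tested members and Sprr3, 1 held a library far from the others, where chance gives about 1 in 20. Kprp stood at 2.88 CPM in BMPR2 DELX 1 and at 5.52 to 5.69 CPM in BMPR2 DELX 2 to 4. The gap to the nearest library was 0.937 of the range of the group, above Dixon's critical value.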

How the results depend on the processing

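The count of 8 members called lower was 8 with size-factor scaling, DESeq2 and limma voom, 7 with upper-quartile scaling, the unstranded column or the replicate block, and 6 with no count filter or with 1 CPM in 4 libraries. DESeq2 called 2266 genes in all, against 1355, and 1 member higher, Sprr1a. The 1 CPM filter left 17 members, with a median of -0.33. Leaving out 1 library at a time gave 477 to 1266 genes, 4 to 8 members called lower and medians of -0.72 to -0.38. Without ROSA 1 and 2, 172 genes and 1 member (Lce1g) were called, and without BMPR2 DELX 2 and 3, 78 genes and 1 member (Crct1); both removals were added after seeing the data and leave fewer samples. The labels state no pairing, so the numbers were not taken as pairs. Same-numbered libraries had correlations of deviations of 0.005 to 0.24, and 2 of 4 BMPR2 DELX libraries matched their own number best, which does not settle whether they are pairs. With the replicate block 563 genes were higher and 682 lower, S100a11 (adjusted p of 0.055) and Sprr2k (0.062) were not called and S100a10 was (0.045), which gives the 7; it changed no other member's call.

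Signs turned for members not called: S100a16 with upper-quartile scaling (0.0027) and across single removals (-0.11 to 0.037), S100a5 with the unstranded column (0.021), across single removals (-0.29 to 0.12), without ROSA 1 and 2 (0.15) and without BMPR2 DELX 2 and 3 (0.25), Kprp across single removals (-0.27 to 0.022), S100a1 across single removals (-0.011 to 0.19) and without ROSA 1 and 2 (-0.031), Tchh across single removals (-0.22 to 0.024) and Ivl without ROSA 1 and 2 (0.13). The cause was not tested. Of the planned single-member values, 308 kept direction and side of the threshold, 27 lost the call, 3 gained it and 9 turned; a member that a filter left out has none. Depth limits the 38 untested members.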
